A study of Mus musculus with 12 samples.

Results

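RNA for 10 chemokine ligands is described here in mouse hippocampal cultures treated with a mimic of miR-148a-3p or with a control oligonucleotide. The members were fixed by name: Ccl2, Ccl3, Ccl4, Ccl5, Ccl7, Cxcl1, Cxcl10, Cxcl12, Cxcl14 and Cx3cl1, which are 10 of the 48709 genes counted. Chemokines are small secreted proteins that draw cells along a gradient by binding receptors coupled to G proteins. In the brain, glial cells release most of the inflammatory members when pattern recognition or cytokine receptors are engaged, and the ligand genes are then switched on largely through NF-kB and interferon signalling. Other members are made at rest, chiefly Cx3cl1, a membrane-tethered ligand of neurons that is read by the microglial receptor Cx3cr1, and Cxcl12, which guides migrating neurons and interneurons.

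The cultures were primary hippocampal neurons of CD1 mouse embryos at embryonic day 17, for which tissue of several embryos was pooled. Lipid nanoparticles carrying either the mimic (6 libraries) or the negative control oligonucleotide (6 libraries) were added at day 10 in vitro, and RNA was taken at day 12, 48 h later. Both groups therefore received nanoparticles, given together with ApoE4 per the study's methods, and no untreated culture was analysed here. Poly(A) RNA was sequenced as 50-base single-end reads, and the total count per library ran from 20018234 to 37149112, with control 1 and control 2 the shallowest. The labels do not say whether the 6 libraries of a group came from separate cultures, so p-values measure the spread between these libraries only.

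The labelled cell type was present together with glia. The 10 neuron markers summed to 8710 to 9461 CPM (counts per 1000000 counts of the normalized library total) in control, and the 10 astrocyte markers to 4946 to 5429 CPM. The 15 microglial markers summed to 32.3 to 38.4 CPM in control, with no marker at 0. In mimic the astrocyte sum was higher, at 5804 to 6261 CPM, without overlap with control. Slc1a3 weighed most in that rise, with means of 912 CPM in control and 1815 CPM in mimic. Gfap went the other way, from 1362 to 731 CPM, so the sum does not describe every marker. Of the 10 astrocyte markers 7 passed the test upwards, beside 11.5% of all tested genes. Gfap alone passed it downwards, beside 10.7%, a count of 1 lower that was 2 in 4 of 18 alternatives. These are bulk libraries, in which fewer cells of a type and less RNA per cell cannot be told apart.

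The reagents are shown first because their seed, bases 2 to 8 counted from the 5′ end and set in capitals, decides which transcripts they can pair with. The mimic sequence was identical to the mature mouse miR-148a-3p of RefSeq. The series text calls the control a siRNA, so the control sequence given here assumes that the listed reagent is the one used in these cultures.
miR-148a-3p mimic: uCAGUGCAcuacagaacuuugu
negative control: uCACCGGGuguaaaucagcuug

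In the longest annotated 3′ untranslated region of each member, a match to bases 2 to 8 of the mimic, or to bases 2 to 7 followed by A, was found in 1 of 10 members, Cxcl12, beside 21.9% of the 15082 tested genes with such a region. For the negative control the seed match was found in Cxcl10 alone, beside 4.42% of those genes. Both windows are given on GRCm38, read in the direction of the transcript with the match in capitals. A match is a description of the letters and not evidence of binding.
Cxcl12, match to the mimic, chr6:117179314-117179336, plus strand: cttgtctgTGCACTGtctctaac
Cxcl10, match to the negative control, chr5:92347329-92347351, minus strand: gcacacacCCCGGTGctgcgatg

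Of the 10 ligands, 8 reached 5 counts in 6 or more libraries, the count filter used here, and were tested with edgeR's quasi-likelihood test, with adjustment over all 18847 tested genes. Lower RNA in mimic passed the threshold of 0.05 for 3 of the 8, Ccl2, Cxcl1 and Cxcl10. Higher RNA passed it for 0 of the 8, and for 0 also at an unadjusted p under 0.05 and with DESeq2. Over all tested genes 10.7% passed lower and 11.5% passed higher. The libraries of the 2 groups did not overlap for 1 of the 8, Cxcl1, beside 13.2% of all tested genes. The median log2 fold change was -0.42 over the 8 tested ligands and -0.01 over all tested genes.

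**Figure D1:**
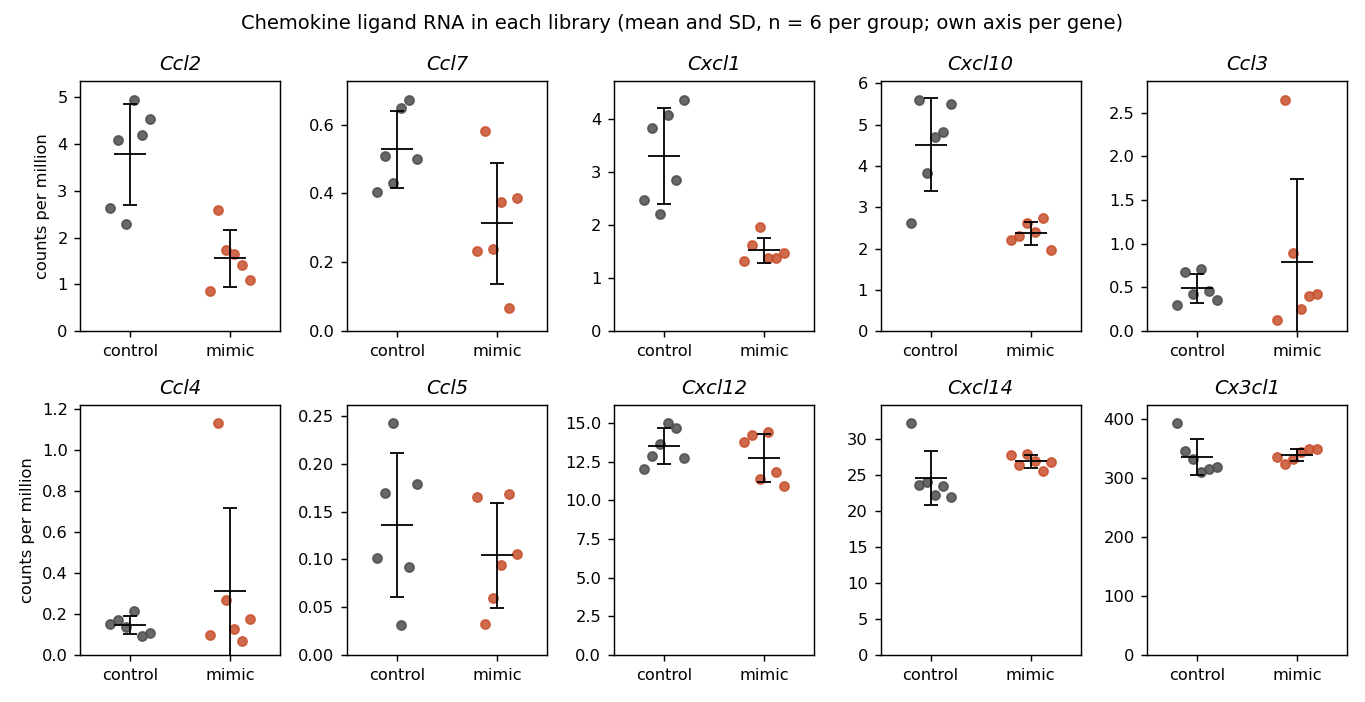
Level of each ligand in CPM (vertical axes, 1 scale per gene, starting at 0, where error bars reaching below 0 are cut) in the 6 control and 6 mimic libraries, each point 1 library in replicate order, with mean and SD. Cxcl1 falls apart into 2 ranges (2.21 to 4.36 in control, 1.32 to 1.96 in mimic), Ccl3 and Ccl4 have 1 high library, mimic 2, and the last 3 ligands stay close between groups.

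The inflammatory ligands that fell are described first. Ccl2 (ENSMUSG00000035385, GRCm38 chr11:82035571-82037453, plus strand) encodes the monocyte attractant read by Ccr2. It had 52, 96, 85, 160, 137 and 127 counts in control libraries 1 to 6, and 26, 80, 58, 53, 42 and 31 in mimic libraries 1 to 6. That is 3.78 ± 1.07 CPM with the control and 1.56 ± 0.603 CPM with the mimic (mean ± SD, n = 6 per group). All 6 mimic libraries lay below the control mean and 5 of them below the lowest control library, with mimic 2 reaching into the control range. The log2 fold change was -1.28 (SE 0.24, 95% interval -1.78 to -0.77, edgeR adjusted p = 0.001).

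Ccl7 lies beside Ccl2 on chromosome 11 (chr11:82045712-82047525, plus strand) and encodes a further monocyte attractant. Its libraries held few reads, 8, 12, 16, 21, 22 and 14 counts in control and 7, 18, 8, 12, 2 and 11 in mimic. The level was 0.528 ± 0.111 CPM with the control and 0.313 ± 0.175 CPM with the mimic (mean ± SD, n = 6 per group), and the groups overlapped. On the log2 scale the fold change was -0.76 (SE 0.31, 95% interval -1.41 to -0.11) and missed the threshold, with an edgeR adjusted p of 0.0905. Without mimic 2 the value was -1.03 and passed, with an edgeR adjusted p of 0.0215.

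Cxcl1 (ENSMUSG00000029380, chr5:90891241-90893115, plus strand) encodes a neutrophil attractant read by Cxcr2. It had 49, 90, 82, 132, 93 and 122 counts in control libraries 1 to 6 and 40, 50, 66, 44, 41 and 42 in mimic libraries 1 to 6. Scaled to depth this was 3.3 ± 0.905 CPM against 1.52 ± 0.239 CPM (mean ± SD, n = 6 per group), and every mimic library lay below every control library. Its log2 fold change was -1.11 (SE 0.17, 95% interval -1.47 to -0.74, edgeR adjusted p = 0.000136). The spread was also narrower in mimic, as the plot of ligand levels shows.

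Cxcl10 (ENSMUSG00000034855, chr5:92346638-92348889, minus strand) encodes an interferon-induced attractant of T cells that binds Cxcr3. Counts were 52, 132, 142, 152, 158 and 154 in control and 67, 71, 88, 77, 81 and 56 in mimic. The level was 4.52 ± 1.13 CPM with the control and 2.37 ± 0.277 CPM with the mimic (mean ± SD, n = 6 per group). The groups overlapped through control 1, whose 2.63 CPM lay below the 2.73 CPM of mimic 5, while the other 5 control libraries lay above every mimic library. The log2 fold change was -0.93 (SE 0.15, 95% interval -1.24 to -0.62, edgeR adjusted p = 0.000153). The exons of Cxcl10 share 133 bases with Art3 on the opposite strand, a gene with a mean of 15.2 counts, and whether the counting used the strand is not stated.

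Promoter sequences from RefSeq (GRCm38.p6) were matched for 6 of the 10 members, and of the 3 that fell Cxcl1 and Cxcl10 have an entry. The 250 bases before the start are printed for both, 5′ to 3′ on the strand of the gene, because both genes are textbook targets of NF-kB, and Cxcl10 of interferon signalling as well. Capitals mark matches to the NF-kB consensus and to the ISRE, the interferon-stimulated response element, searched as GAAA, any 2 bases, GAAA. Both strands were searched.
Cxcl1, chr5:90890995-90891244, plus strand: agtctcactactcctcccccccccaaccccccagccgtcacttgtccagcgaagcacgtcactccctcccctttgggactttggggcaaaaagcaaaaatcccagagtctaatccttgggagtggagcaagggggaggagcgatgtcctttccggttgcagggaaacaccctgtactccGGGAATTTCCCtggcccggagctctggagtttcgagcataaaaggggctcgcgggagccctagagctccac
Cxcl10, chr5:92348890-92349139, minus strand: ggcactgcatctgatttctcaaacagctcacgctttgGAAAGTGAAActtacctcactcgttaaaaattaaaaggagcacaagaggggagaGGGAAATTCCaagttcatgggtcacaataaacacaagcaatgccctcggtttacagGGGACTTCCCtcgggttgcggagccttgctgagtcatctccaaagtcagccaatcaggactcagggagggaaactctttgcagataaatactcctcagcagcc

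The NF-kB consensus matched in Cxcl1 as 1 stretch that reads on both strands in overlapping frames, 71 to 61 bases before the start. In Cxcl10 it matched at 2 places, 159 to 150 and 103 to 94 bases before the start. A match was present in 3.9% of all 32851 promoters listed. The ISRE letters matched in Cxcl10, 213 to 204 bases before the start, and in Cxcl14, whose RNA did not pass the test, beside 2.98% of all promoters. The 7-letter AP-1 motif TGANTCA matched in Cxcl10 alone of the 6, beside 6.75% of all promoters, the 9-letter motif TTC, any 3 bases, GAA in Cxcl14 alone, beside 7.02%, and TATAAA in Cx3cl1 alone, beside 12.4%. No match was found for any of the 5 motifs in Ccl3 and Cxcl12.

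Ccl3, Ccl4 and Ccl5 are related attractants of leukocytes, with mean counts of 19.5, 6.92 and 3.58 over the 12 libraries. Ccl3 (chr11:83647844-83649355, minus strand) had 6, 16, 16, 23, 15 and 10 counts in control and 4, 82, 30, 8, 12 and 12 in mimic. The mimic libraries thus held both the lowest and the highest value, and mimic 2 stood far above the rest. The level was 0.49 ± 0.169 CPM with the control and 0.792 ± 0.946 CPM with the mimic (mean ± SD, n = 6 per group). The log2 fold change of 0.68 (SE 0.60, 95% interval -0.60 to 1.97) did not pass, with an edgeR adjusted p of 0.477. Without mimic 2 it was -0.21, with the opposite sign and an edgeR adjusted p of 0.764.

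Ccl4 (chr11:83662584-83664683, plus strand) and Ccl5 (chr11:83525778-83530518, minus strand) stayed below the count filter. Ccl4 had 3, 4, 5, 7, 3 and 3 counts in control and 3, 35, 9, 4, 2 and 5 in mimic, again with mimic 2 apart. The difference in mean CPM was 0.166 (two-sided exact permutation test over 924 relabellings, p = 0.483), and 0.00177 without mimic 2. Ccl5 had 2, 4, 9, 1, 3 and 5 counts in control and 5, 1, 2, 3, 5 and 3 in mimic, a difference of -0.0316 CPM by the same exact test (p = 0.42). The smallest p this test allows is 0.00217. For both ligands the groups overlapped.

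**Figure D2:**
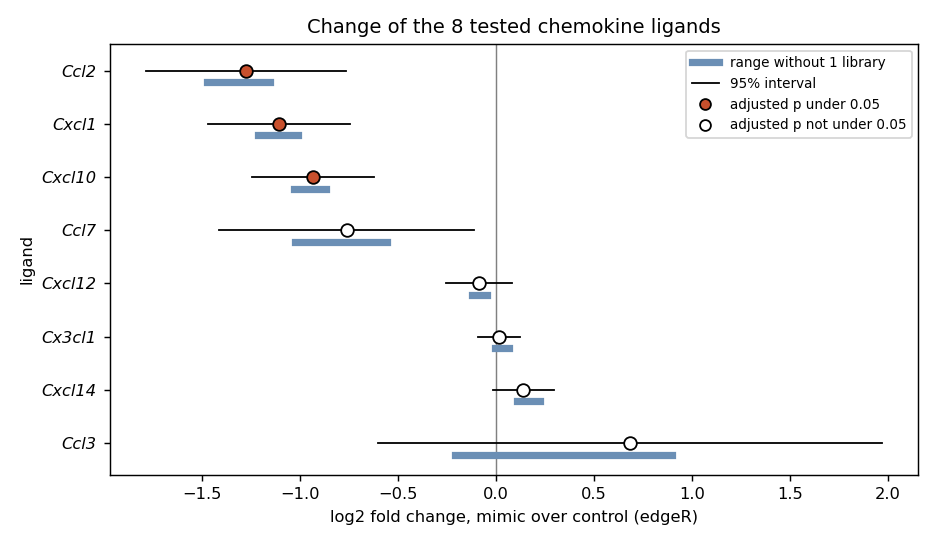
Log2 fold change of mimic over control (horizontal axis) for the 8 tested ligands (vertical axis), with the 95% interval (thin line) and the range when 1 library is left out (thick line). Ccl2, Cxcl1 and Cxcl10 lie below 0 with both ranges, and Ccl3 spans 0 with both.

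The ligands made at rest differed little. Cxcl12 (chr6:117168535-117181367, plus strand), read by Cxcr4 and by the scavenging receptor Ackr3, ran from 12.01 CPM over a median of 13.3 to 15.0 CPM in control and from 10.9 over 12.8 to 14.4 CPM in mimic. Means were 13.5 ± 1.17 and 12.8 ± 1.56 CPM (mean ± SD, n = 6 per group), and the groups overlapped over most of their ranges. This gave a log2 fold change of -0.09 (SE 0.08, 95% interval -0.25 to 0.08, edgeR adjusted p = 0.494). Cxcl12 is also the member with the mimic's seed match shown above.

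Cxcl14 (chr13:56288643-56296551, minus strand), an attractant of resting tissue, ran from 21.9 over 23.5 to 32.2 CPM in control and from 25.5 over 26.9 to 27.8 CPM in mimic. Control 1, at 32.2 CPM, lay above every mimic library, whereas the other 5 control libraries, up to 23.99 CPM, lay below every mimic library. With all 12 libraries the log2 fold change was 0.14 (SE 0.07, 95% interval -0.02 to 0.29, edgeR adjusted p = 0.204). Without control 1 it was 0.22 and passed the threshold, with an edgeR adjusted p of 0.000248.

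Cx3cl1 (chr8:94772009-94782427, plus strand) was the most abundant member. It ran from 310 over 326 to 394 CPM in control and from 325 over 340.0 to 351 CPM in mimic, with control 1 highest and the mimic range inside that of control. The log2 fold change was 0.02 (SE 0.05, 95% interval -0.09 to 0.12, edgeR adjusted p = 0.870), the narrowest interval of the 8. Without both control 1 and control 2, the 2 shallowest libraries, it was 0.09 and passed, with an edgeR adjusted p of 0.0166.

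Levels of different ligands were compared only per kilobase of merged exon length, as CPM per kb, a scale that also counts retained introns in the length. In control Cx3cl1 stood at 85.5 ± 7.89 CPM per kb and Cxcl14 at 13.4 ± 2.09 (SD, n = 6), each apart from the next in every library. Ccl2 at 3.32, Cxcl10 at 2.0, Cxcl1 at 1.76 and Cxcl12 at 1.65 CPM per kb followed, and neighbours among these 4 overlapped in their ranges. Ccl7 at 0.659 and Ccl3 at 0.64 CPM per kb overlapped each other, as did Ccl4 at 0.22 and Ccl5 at 0.141. In mimic the first 2 places were the same, and from the third place on every neighbour overlapped the next, with Cxcl12 at 1.56 CPM per kb ahead of Ccl2 at 1.37.

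Mimic 2 also stood apart in myeloid genes, and the values are given here beside Ccl3 and Ccl4. Of the 15 microglial markers 6 were highest there and 9 were not. Trem2, a receptor of activated microglia, had 123 counts in mimic 2 and at most 31 in any other library, and its signalling partner Tyrobp had 144 against at most 43. Ptprc, a pan-leukocyte phosphatase, had 141 counts against at most 50. The next highest count was that of mimic 3 for these 3 genes and for Ccl3 and Ccl4 as well. Scaled to depth, however, Ptprc was higher in control 2, at 1.66 CPM, than in mimic 3, at 1.49 CPM. The markers of resting microglia did not follow, with P2ry12 at 18 counts against up to 30 elsewhere and Tmem119 at 16 against up to 27. Aif1, at 2.71 CPM, was lowest of the 12 libraries in mimic 2. The marker sum was 57.7 CPM in mimic 2 and 30.9 CPM in the lowest mimic library, and its part in the Ccl3 and Ccl4 values was not tested.

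Over the groups as a whole, 3 of the 15 microglial markers passed the test, all lower in mimic, and 0 passed higher. The 3 were the complement genes C1qa, C1qb and C1qc. Over all tested genes 10.7% passed lower and 11.5% higher. C1qa was at 1.53 ± 0.227 CPM with the control and 0.877 ± 0.145 CPM with the mimic (mean ± SD, n = 6 per group), a log2 fold change of -0.79 with an edgeR adjusted p of 0.000488. The part of microglial RNA in the lower Ccl2, Cxcl1 and Cxcl10 was not tested. All 3 ligands passed in the same direction without mimic 2.

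In the marker lists of cell types other than microglia and astrocytes most tested genes did not pass, and those that did went both ways. Of 10 endothelial and mural markers 7 were tested, with 1 higher and 2 lower in mimic, beside 11.5% higher and 10.7% lower over all tested genes. Their sum ran from 65.8 over 78.2 to 85.6 CPM in control and from 46.7 over 56.0 to 68.1 CPM in mimic, and 1 marker, Cldn5, was at 0 in all control libraries. Kdr made up most of the sum, with means of 58.6 CPM in control and 37.6 CPM in mimic, so the lower sum mainly follows this gene. Pecam1 at 0.717, Cdh5 at 0.417 and Tek at 0.164 CPM in control were near the floor. Kdr and Flt1, receptors of vascular growth factor, fell by 0.64 and 0.77 on the log2 scale, while Rgs5, a pericyte gene, rose by 1.16. The count lower was 1 in 9 of 18 alternatives.

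Of 10 meningeal and fibroblast markers, all tested, 2 passed higher (Pdgfra and Slc6a13) and 1 lower, the matrix proteoglycan Ogn, which fell by 1.39 on the log2 scale. Their sum ran from 188 over 208 to 252 CPM in control and from 125 over 161 to 288 CPM in mimic, and 4 passed lower when mimic 4, the library with the highest sum, was left out. The Cajal-Retzius list had 1 higher and 2 lower of 8 tested, the interneuron list 3 higher and 1 lower of 12, and the neuron list 1 higher and 3 lower of 10, beside 11.5% higher and 10.7% lower over all tested genes. The interneuron count lower ran from 0 to 2 and differed in 7 of 18 alternatives, and the neuron count higher was 2 in 4 of 18. The part of these cell types in the lower ligands was not tested.

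**Figure D3:**
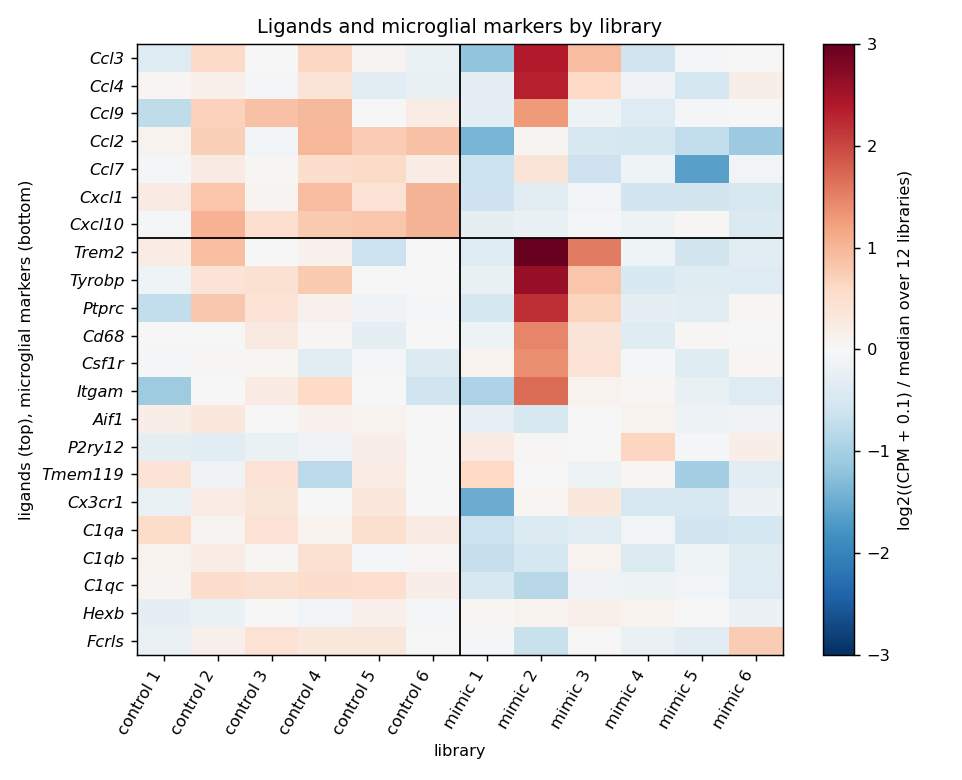
Colour gives log2 of (CPM + 0.1) over its median across the 12 libraries (red above, blue below the median, limited to 3 either way) for 7 ligands (upper rows) and the 15 microglial markers (lower rows), with 1 column per library. Mimic 2 is red for Ccl3, Ccl4, Ccl9 and 6 markers, whereas Ccl2, Cxcl1 and Cxcl10 are redder in the control columns.

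Of the 28 other chemokine ligands 9 passed the count filter, and 2 of the 9 passed the test, both lower in mimic. Over all tested genes 10.7% passed lower, and the count of 2 varied between alternatives. The median log2 fold change was -0.29 over the 9. Cxcl5, a neutrophil attractant read by the same receptor as Cxcl1, had 37, 44, 52, 67, 62 and 63 counts in control and 12, 15, 36, 21, 18 and 19 in mimic. The ranges of its CPM did not overlap, and the log2 fold change was -1.53 (SE 0.19, edgeR adjusted p = 1.47e-05). Cxcl16, a membrane-bound attractant, fell by 0.43 on the log2 scale with an SE of 0.13 (edgeR adjusted p = 0.0241), a call lost in 5 of 18 alternatives. Its exons share 552 bases with Zmynd15 on the other strand, which had a mean of 18.2 counts.

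The other 7 tested ligands did not pass. Cxcl2, a close relative of Cxcl1, was at 0.242 ± 0.0952 CPM with the control and 0.142 ± 0.0878 CPM with the mimic (mean ± SD, n = 6 per group). Ccl6 had a log2 fold change of -0.81 (SE 0.43) and Ccl9 one of -0.29 (SE 0.34), and Ccl9 too was highest in mimic 2, with 75 counts. Ccl17, Ccl25, Ccl27a and Ccl28 had log2 fold changes between -0.17 and 0.00. Ccl25 shares 204 exon bases with Elavl1, a gene of the opposite strand with a mean of 2474.5 counts, and reads of the pair cannot be told apart without strand.

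Of the 23 chemokine receptors 9 passed the filter, and the receptors named above for the ligands that fell, Ccr2, Cxcr2 and Cxcr3, were not among them. Cxcr4, the signalling receptor of Cxcl12, went from 21.4 ± 0.659 to 18.03 ± 0.926 CPM (mean ± SD, n = 6 per group) without overlap, a log2 fold change of -0.25 with an SE of 0.05 (edgeR adjusted p = 0.000554). Ackr4, which removes chemokines without signalling, went from 3.71 ± 0.501 to 6.42 ± 0.84 CPM, a log2 fold change of 0.79 with an SE of 0.10 (edgeR adjusted p = 2.46e-05). It shares 479 exon bases with Acad11 on the opposite strand, which had a mean of 808.2 counts. Ackr1, a further scavenging receptor, fell by 0.17 on the log2 scale with an SE of 0.04 (edgeR adjusted p = 0.00913), but 361 of its exon bases lie in Cadm3, a gene of the same strand with a mean of 14262.6 counts, so its value is uncertain.

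The remaining 6 tested receptors did not pass. Cx3cr1, the microglial receptor of Cx3cl1, was at 0.717 ± 0.119 CPM with the control and 0.519 ± 0.23 CPM with the mimic (mean ± SD, n = 6 per group), with a log2 fold change of -0.47 (SE 0.26). Ackr3, the other receptor of Cxcl12, had one of 0.02 (SE 0.08). Ccr10, Cxcr5, Ackr2 and Ccrl2 had standard errors of 0.28 to 0.42 on the log2 scale, at levels under 0.5 CPM.

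Among 10 genes that cut, trap or process chemokines 9 were tested. Of these 4 passed higher and 0 lower, beside 11.5% higher and 10.7% lower over all tested genes. The count lower was 1 at an unadjusted p under 0.05 and 0 with DESeq2. Mmp2, a protease that trims Ccl7 and Cxcl12, rose from 15.9 ± 2.13 to 30.4 ± 4.58 CPM (mean ± SD, n = 6 per group), a log2 fold change of 0.94 with an edgeR adjusted p of 3.78e-06. Sdc1 and Sdc4, which carry the heparan sulfate that binds chemokines, rose by 0.75 and 0.35 on the log2 scale, and Ext1, which builds that sugar chain, by 0.19. The proteases that shed Cx3cl1 from the membrane, Adam10 and Adam17, had log2 fold changes of -0.15 (SE 0.06) and -0.02 (SE 0.05) and did not pass.

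Among 21 genes of receptor signalling 20 were tested, 2 passed higher and 4 lower, beside 11.5% higher and 10.7% lower over all tested genes, so the count higher was near the background. Grk3, a kinase that desensitises receptors, rose by 0.25 on the log2 scale. Rgs16, which shortens G protein signalling, rose by 0.24. Arrb2, Ptk2b, Gnai1 and Grk5 fell by 0.19, 0.18, 0.15 and 0.20. Every one of these 6 changes was under 0.3 on the log2 scale, and both counts varied between alternatives.

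Of 26 genes of NF-kB signalling and inflammatory receptors, all tested, 4 passed higher and 5 lower (11.5% and 10.7% over all tested genes), with a median log2 fold change of -0.02. Tlr2, which senses bacterial lipopeptides, went from 4.78 ± 0.997 to 2.28 ± 0.597 CPM (mean ± SD, n = 6 per group), a log2 fold change of -1.08 with an edgeR adjusted p of 0.00019. Il1r1, the interleukin-1 receptor, went from 8.96 ± 1.34 to 5.25 ± 0.771 CPM, a log2 fold change of -0.78 with an edgeR adjusted p of 3.75e-05. Nfkbia, an inhibitor of NF-kB and itself a target gene of it, fell by 0.28. The kinase Irak1 and the ligase Traf6, which act downstream of both receptors, rose by 0.30 and 0.24, and Nfkb1 rose by 0.20. The other 17 genes of the list did not pass.

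Of 16 interferon regulators of chemokine genes, all tested, 6 passed lower and 0 higher, beside 10.7% lower and 11.5% higher over all tested genes. The count higher was also 0 at an unadjusted p under 0.05 and 0 with DESeq2, and the median log2 fold change was -0.16. Irf1, a transcription factor induced by interferon, went from 13.4 ± 0.766 to 9.36 ± 1.16 CPM (mean ± SD, n = 6 per group), a log2 fold change of -0.52 with an edgeR adjusted p of 5.07e-05. Stat2 fell by 0.23 on the log2 scale, and Irf9, a partner of it in the complex that binds the ISRE, fell by 0.21. Socs3, a feedback inhibitor, fell by 0.47 and the kinase Jak1 by 0.11. For each of these 5 genes the control and mimic libraries did not overlap.

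**Figure D4:**
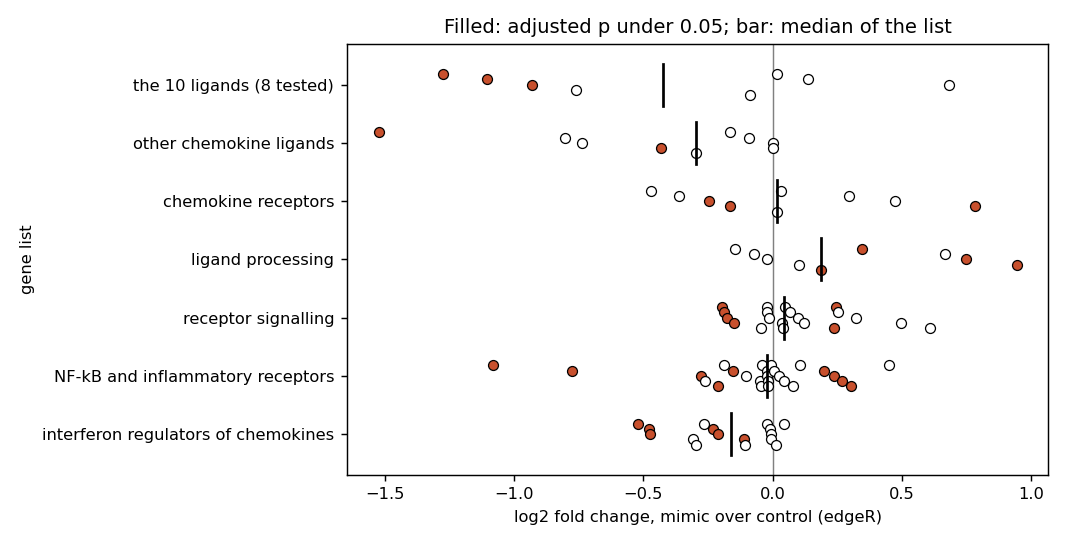
Log2 fold change of mimic over control (horizontal axis) for each tested gene of 7 lists (vertical axis), filled where the edgeR adjusted p was under 0.05, with a bar at the median of the list. Of the 10 ligands only Ccl2, Cxcl1 and Cxcl10 are filled, all below 0, and the interferon regulators have 6 filled points, all below 0.

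The genes whose level varied most like a member's were sought over 11832 genes of at least 100 mean counts, by Pearson correlation of deviations from the group means over the 12 libraries, which share their depth and composition. For Cx3cl1 these were Bcl7a, Ptprn2, Sept5 and Pak6, with r from 0.983 to 0.988, and for Cxcl14 they were Nkiras2, Shb and Lhx2, with r from 0.965 to 0.982. Control 1 was the highest control library for both ligands. For Ccl2 they were B3galnt1, Tagln2, Tnfaip2 and Chek2 with r from 0.867 to 0.949, for Cxcl1 Ccnd1, Tusc3 and Arl1 with 0.868 to 0.898. For Cxcl10 they were Rmi1, Ppm1d, Acta2 and Anxa5 with 0.932 to 0.955, and for Cxcl12 Mcmbp, Ndufa6, Ormdl2 and Txnrd3 with 0.863 to 0.903. No gene was named for more than 1 member. Each set holds the highest r picked from 11832 genes over 12 libraries, and high values can arise from such selection alone. Whether any r exceeded that was not tested.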

How the data were processed

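Raw counts per gene in 12 libraries were used as deposited. Per the labels and the study's methods, the authors checked reads with FastQC 0.11.5, aligned them to mm10 with STAR 2.5.2b and counted them with featureCounts (Subread 1.5.1). Use of strand in counting is not stated. A deposited normalized table was not used. Symbols, coordinates and exon lengths came from GENCODE M21 on GRCm38, the same build as mm10. Genes with at least 5 counts in 6 of 12 libraries were tested with edgeR 4.0.16 (R 4.3.3; TMM factors, robust quasi-likelihood F-test, no covariate, Benjamini-Hochberg adjustment). The standard error was the log2 fold change divided by the square root of F. CPM used TMM-scaled totals. Ligands below the filter were compared by exact permutation, with log2(CPM + 0.1) as an alternative scale. Alternatives were DESeq2 1.42.0, median-ratio factors, other filters, a replicate block, omission of control 1 and control 2, and omission of each library. The code was tested on simulated counts.

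The members and gene lists were chosen with earlier results of these data known. Named were all members, the tested other ligands and receptors, up to 6 called genes of each further list by adjusted p, and the 4 genes of most similar pattern for members with at least 50 mean counts. Some genes selected by this rule are not reported here. Further genes named for their role or library values (Adam10, Adam17 and the markers high in mimic 2) were chosen after their values were seen. Among samples of the same number, correlations of deviations from group means ran from -0.0429 to 0.105, so numbers were not taken to pair them.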

Additional observations from a re-analysis of the deposited data

Results flagged for a closer look

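In 56 groups of 6 libraries (28 ligands and receptors, control and mimic), 6 had an extreme library separated from the next by more than Dixon's 95% limit of 0.625 of the range. Independent values of normal spread would give about 1 in 20, or 2.8. Genes of the same library are not independent and some had few counts, so 2.8 is a rough guide only. Ccl3 in mimic 2 was at 2.65 CPM with the next library at 0.892. Ccl4 in mimic 2 was at 1.13 CPM with the next at 0.268, and Ccl9 in mimic 2 at 2.42 CPM with the next at 0.949. Cxcl14 in control 1 was at 32.2 CPM with the next at 23.99. Cxcr5 in control 2 was at 0.297 CPM with the next at 0.155, and Ackr1 in control 3 at 47.2 CPM with the next at 43.4.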

How the results depend on the processing

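Ccl2, Cxcl1, Cxcl10 and Cxcl12 kept direction and side of the threshold in all 18 alternatives, with log2 fold changes of -1.48 to -1.15, -1.21 to -1.01, -1.03 to -0.87 and -0.14 to -0.05. The count of ligands called higher was 0 to 1 when single libraries were left out (Cxcl14 without control 1) and 2 without control 1 and control 2 (Cxcl14 and Cx3cl1), and the count called lower was 3 to 4 (Ccl7 without mimic 2). With single libraries left out, Ccl3 ranged from -0.21 (without mimic 2) to 0.90. Cx3cl1 then ranged from -0.007 (without control 4) to 0.066 (without control 1), and it was 0.09 without control 1 and control 2. Called lower among the other ligands were 1 with no count filter, 1 with the replicate block and 1 to 3 without single libraries. Genes of ligand processing called lower numbered 1 without control 1 and control 2 and 0 to 1 without single libraries. Receptor signalling had 1 higher and 2 lower with the replicate block, 5 higher without control 1 and control 2, and 1 to 4 higher and 1 to 4 lower without single libraries. The causes were not tested. With the replicate block Ccl2, Cxcl1 and Cxcl10 had -1.27, -1.08 and -0.91, and all genes 1950 higher and 1709 lower. Of the 12 libraries 1 correlated best with its own number. Counts were low for Ccl3, Ccl4, Ccl5 and Ccl7, with means of 19.5, 6.92, 3.58 and 12.6 per library, which widens their counting error.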
